A study of Mus musculus with 8 samples.

Results

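The mRNAs of both Roquin genes, of the RNase Regnase-1 and of 5 transcripts that these proteins are known to destabilize were followed in CD11b+Gr-1hi and CD11b+Gr-1lo myeloid cells of sanroque mice. The 8 genes, *Rc3h1*, *Rc3h2*, *Zc3h12a*, *Icos*, *Tnfrsf4*, *Nfkbid*, *Ier3* and *Tnf*, were chosen by name from the 54188 genes of the count table, and all 8 were among the 17650 genes that passed a filter on low counts. Roquin-1, encoded by *Rc3h1*, and its paralogue Roquin-2, encoded by *Rc3h2*, bind short stem-loops in the 3′ UTRs of mRNAs and recruit the CCR4-NOT deadenylase, which starts the decay of the transcript. The best known of these stem-loops, the constitutive decay element, was described in *Tnf* mRNA of macrophages. Regnase-1, encoded by *Zc3h12a*, is an endonuclease that cuts an overlapping set of mRNAs, and in T cells both kinds of protein limit the costimulatory receptors ICOS and OX40.

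All mice were C57BL/6 sanroque animals of about 20 weeks, labelled female and homozygous for the san allele (Roquin san/san), a point mutation in *Rc3h1*. The 4 groups were SP Gr-1hi (libraries 5 and 6), SP Gr-1lo (7 and 8), BM Gr-1hi (9 and 10) and BM Gr-1lo (11 and 12), where SP is the spleen and BM the bone marrow. The study's names for the subsets are G-MDSC and M-MDSC, granulocytic and monocytic myeloid-derived suppressor cells. By the labels every library carried the mutation, and no wild-type library was analysed here, so the levels compare tissues and subsets within the mutant strain and not the mutant with the normal allele. The counts are per gene and do not separate alleles.

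Library depth was 33453580 to 68316154 counts on genes. Where a gene has no count, up to 3 counts are allowed for, equal to 0.0348 to 0.124 CPM (counts scaled to library size), a limit that covers counting error alone. The 8 neutrophil markers were all called higher in Gr-1hi than in Gr-1lo cells of both tissues. Of 7 monocyte markers, 5 were called lower and 1, *Itgam*, which is on both lists, was called higher. Over all genes, 22.3% were called higher and 27.4% lower in SP, and 24.2% and 33.1% in BM. *Xist*, the RNA of the inactive X chromosome, was counted 12032 times in library 5 and 9898 times in library 7, and the others had no more than 5 counts each. The Y-linked gene *Ddx3y* had 0 counts in library 5 and 33.7 CPM in library 7, and it reached 52.5 to 82.6 CPM in the other 6, so that most libraries went against the label female. Values without libraries 5 and 7 are given where they differ.

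The 3′ UTRs of the 8 genes were searched on the sense strand for TTCNNNGAA, the stem arms and the open loop of the constitutive decay element, with N for any base. Of the 8 genes, 6 held it, at 17 positions, and 8 of these positions had the pyrimidine-purine-pyrimidine loop of the known element. These 8 sites are shown because the same core of 9 letters, TTCTGTGAA, stood in each, while the stem around it differed. The core is in capitals, coordinates are those of GRCm38, all sites lie in the 3′ UTR, and the letters come from GENCODE M21 transcripts.
Tnf, chr17:35199581-35199603, minus strand: acatgttTTCTGTGAAaacggag
Nfkbid, chr7:30428398-30428420, plus strand: aggtgatTTCTGTGAAatcgagc
Nfkbid, chr7:30428426-30428448, plus strand: tgattgtTTCTGTGAAacactct
Ier3, chr17:35822870-35822892, plus strand: atgtatgTTCTGTGAAcacgaat
Icos, chr1:60999482-60999504, plus strand: acaaaatTTCTGTGAAataaaat
Rc3h1, chr1:160968035-160968057, plus strand: gtttttgTTCTGTGAAtgaactt
Rc3h1, chr1:160971656-160971678, plus strand: caataacTTCTGTGAAgttgcct
Rc3h2, chr2:37373805-37373827, minus strand: aattaacTTCTGTGAAgttgttt

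Counted outward from the loop, with G-T pairs allowed, the stem had 7 pairs in *Tnf*, in both *Rc3h1* sites, in *Rc3h2* and in the upstream *Nfkbid* site. It had 6 pairs in the other *Nfkbid* site and 5 in *Ier3* and *Icos*. The 9 positions with another loop had stems of 3 to 5 pairs. Short UTRs held some of the sites: the *Nfkbid* UTR has 559 bases with cores at 218 and 246 bases after the stop codon, the *Ier3* UTR has 613 with a core at 567, and the *Tnf* UTR has 764 with a core at 549. The *Rc3h1* UTR is long, at 7181 bases, with cores at 245 and 3866. Transcripts of both Roquin genes therefore carried the letters that Roquin proteins are known to bind.

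Among 21005 genes with an annotated 3′ UTR, 35.2% held TTCNNNGAA, 5.65% held it with a pyrimidine-purine-pyrimidine loop and 2.45% held TTCTGTGAA itself. Among genes with a UTR of like length, 0.8 to 1.25 times that of the gene in question, the core with the pyrimidine-purine-pyrimidine loop stood in 2.06% for *Nfkbid*, 2.14% for *Ier3*, 3.43% for *Tnf*, 10.1% for *Icos*, 18.2% for *Rc3h2* and 25.7% for *Rc3h1*. *Zc3h12a*, with a UTR of 856 bases, and *Tnfrsf4*, with 180 bases, did not hold TTCNNNGAA. Roquin is known to bind *Tnfrsf4* mRNA through a stem-loop with a larger loop, which was not searched. A match of letters is a description and not evidence of binding, and the genes had been picked as known targets.

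**Figure D1:**
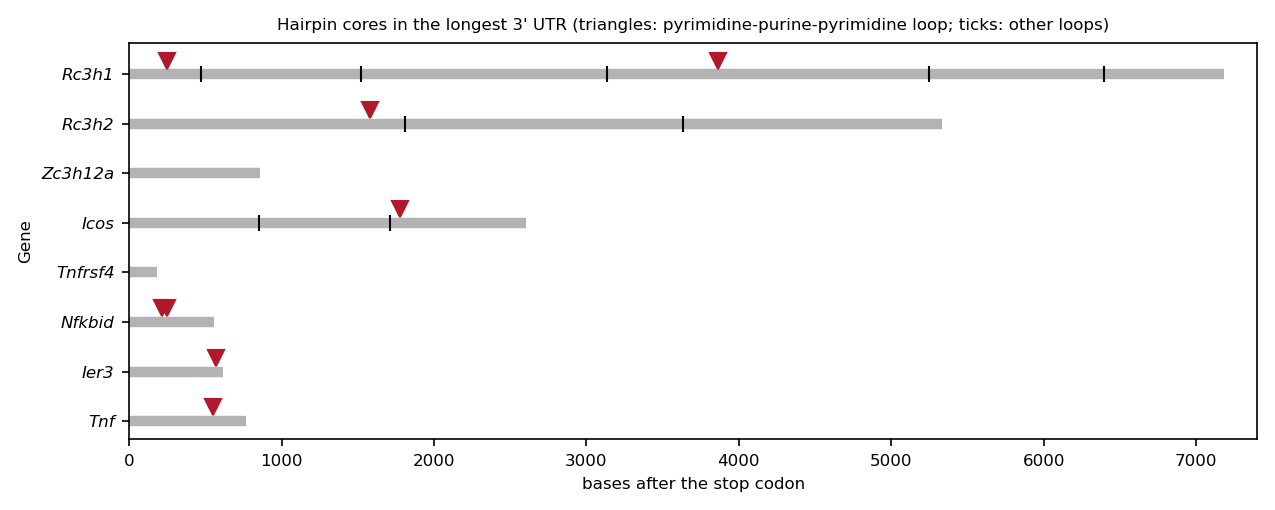
The longest annotated 3′ UTR of each gene is drawn as a grey bar from the stop codon, with the distance in bases on the horizontal axis and the genes on the vertical axis. Red triangles mark cores with a pyrimidine-purine-pyrimidine loop and black ticks the other TTCNNNGAA matches. *Rc3h1* has 2 triangles and 5 ticks on 7181 bases, *Nfkbid* has 2 triangles on 559 bases, and *Zc3h12a* and *Tnfrsf4* have none.

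Levels below are CPM after TMM scaling, in which a factor per library is set on the assumption that most genes do not differ between libraries. To compare genes with each other, TPM, which also divide by exon length, were used. The mean TPM over the 8 libraries was 88.5 for *Ier3*, 67.2 for *Nfkbid*, 60.6 for *Tnf* and 53.8 for *Zc3h12a*. It was 17.3 for *Rc3h1*, 8.53 for *Rc3h2*, 4.76 for *Tnfrsf4* and 1.41 for *Icos*. Per unit of length, the cytokine, the NF-κB regulator, *Ier3* and *Zc3h12a* were thus the most abundant, and the genes of both T cell receptors for costimulation the least.

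*Rc3h1* (ENSMUSG00000040423, chr1:160906418-160974978), the gene that carries the san mutation, was at 125 and 116 CPM in SP Gr-1hi and 115 and 107 in BM Gr-1hi. It was at 60.6 and 60.6 CPM in SP Gr-1lo and 61.2 and 52.3 in BM Gr-1lo. In TMM-scaled CPM all 4 Gr-1hi libraries lay above all 4 Gr-1lo libraries, but in TPM the BM Gr-1hi library 10, at 15.4, lay below the Gr-1lo libraries 7, 8 and 11, at 16.2, 15.5 and 16.8. SP and BM did not differ beyond the spread in Gr-1hi cells, with a log2 FC of 0.13 (95% interval -0.10 to 0.35, adjusted p = 0.36, edgeR), or in Gr-1lo cells, with 0.10 (-0.13 to 0.32, adjusted p = 0.643). The fall from BM Gr-1hi to SP Gr-1lo, the neighbours in the middle of the order, had a log2 FC of -0.87 (adjusted p = 5.71e-05).

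*Rc3h2* (ENSMUSG00000075376, chr2:37370069-37422903) had 121 and 115 CPM in SP Gr-1hi and 123 and 114 in BM Gr-1hi. In Gr-1lo cells it had 41.1 and 45.0 CPM in SP and 33.9 and 35.2 in BM. The Gr-1hi libraries of both tissues overlapped, with a log2 FC of 0.00 (95% interval -0.20 to 0.20), while in Gr-1lo cells SP lay above BM by 0.32 (0.11 to 0.52) with an adjusted p of 0.0873.

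The ratio of *Rc3h1* to *Rc3h2* counts, which does not depend on how libraries are scaled, was 1.03, 1.01, 0.935 and 0.936 in the Gr-1hi libraries 5, 6, 9 and 10. It was 1.48, 1.35, 1.81 and 1.49 in the Gr-1lo libraries 7, 8, 11 and 12. The share of *Rc3h1* among Roquin reads was thus higher in each Gr-1lo library than in any Gr-1hi library.

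*Zc3h12a* (ENSMUSG00000042677, chr4:125118423-125127840) was at 114 and 108 CPM in SP Gr-1hi, 84.7 and 72.8 in BM Gr-1hi, 43.4 and 49.2 in SP Gr-1lo and 41.9 and 41.7 in BM Gr-1lo. Within Gr-1hi cells SP was above BM in both libraries, with a log2 FC of 0.50 ± 0.10 (SE) and an adjusted p of 0.00834 (edgeR), a difference smaller than 2-fold. Within Gr-1lo cells the log2 FC was 0.15 (95% interval -0.09 to 0.39).

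*Icos* (ENSMUSG00000026009, chr1:60977927-61000320), the costimulatory receptor of activated and follicular helper T cells, was at 7.41 and 6.38 CPM in SP Gr-1hi (246 and 200 counts) and 1.35 and 1.98 in SP Gr-1lo (64 and 171 counts). In BM it rested on few reads: 3 and 5 counts in Gr-1hi, or 0.112 and 0.206 CPM, and 7 and 2 counts in Gr-1lo, or 0.143 and 0.0378 CPM. Both SP groups lay above both BM groups. *Icos* rose in SP relative to BM by a log2 FC of 5.43 ± 0.47 in Gr-1hi cells (adjusted p = 0.000226) and 4.20 ± 0.47 in Gr-1lo cells (adjusted p = 0.00158), both from edgeR's quasi-likelihood test. No other of the 8 genes was called in these comparisons. *Icos* passed the filter on low counts only through its SP libraries, where it was high. Its adjusted p values therefore do not come from a selection that was blind to the tissue.

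*Tnfrsf4* (ENSMUSG00000029075, chr4:156013843-156016612), which encodes OX40, another costimulatory receptor of T cells, had 6.66 and 5.36 CPM in SP Gr-1hi and 3.63 and 2.77 in BM Gr-1hi. In Gr-1lo cells it had 1.50 and 1.32 CPM in SP and 1.37 and 1.44 in BM, and these libraries overlapped. Its log2 FC of SP against BM was 0.91 ± 0.22 in Gr-1hi (adjusted p = 0.0158, edgeR, a 1.88-fold difference) and 0.00 (95% interval -0.53 to 0.53) in Gr-1lo cells. The Gr-1hi value passed 2-fold without library 9 (1.05, adjusted p = 0.0351) and with scaling by total counts (1.12, adjusted p = 0.00946), where 17.2% of all genes were called higher.

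**Figure D2:**
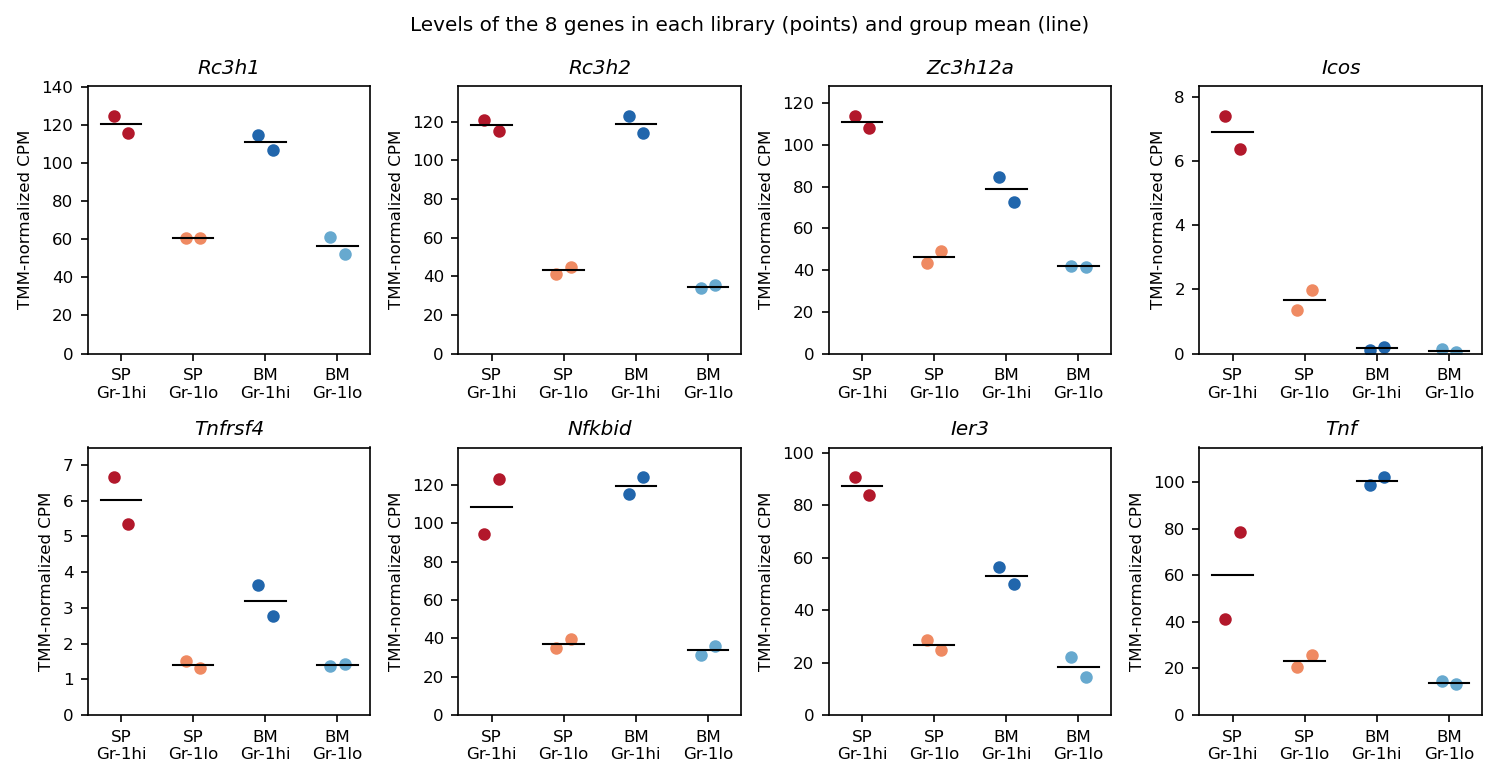
TMM-normalized CPM of each gene (vertical axes, each from 0) in the 2 libraries of each of the 4 groups (horizontal axes), with a line at the group mean. *Rc3h1* and *Rc3h2* stand at 107 to 125 CPM in the 4 Gr-1hi libraries and at 33.9 to 61.2 CPM in the 4 Gr-1lo libraries, whereas *Icos* is near 0 in BM.

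The T cell markers moved with *Icos*. The summed level of 16 T cell genes was 134 to 212 CPM in SP Gr-1hi, 43.4 to 64.2 in SP Gr-1lo, 21.1 to 21.9 in BM Gr-1hi and 3.73 to 4.33 in BM Gr-1lo. Between SP and BM, 14 of the 16 rose in Gr-1hi cells and all 16 in Gr-1lo cells, and none was at 0 in any library. Over all genes, 14.0% were called higher in SP in Gr-1hi and 3.84% in Gr-1lo cells. *Cd3e*, a chain of the T cell receptor complex, rose by a log2 FC of 4.50 ± 0.38 in Gr-1hi (adjusted p = 0.000208) and 4.43 ± 0.42 in Gr-1lo cells (adjusted p = 0.000718, edgeR). In bulk RNA, fewer cells of a type and less RNA per cell cannot be told apart, and the part of T cells in the *Icos* result was not tested. B cell genes moved too, with a sum over 9 genes of 353 to 524 CPM in SP Gr-1hi, 65.3 to 82.1 in SP Gr-1lo and 7.89 to 18.8 in the BM libraries. Dendritic cell markers summed to 94.5 to 96.4 CPM in SP Gr-1hi, 26.6 to 40.2 in BM Gr-1hi, 18.0 to 22.3 in SP Gr-1lo and 5.33 to 8.81 in BM Gr-1lo. In SP Gr-1hi nearly all of this sum was *Itgax*, at 81.9 and 83.8 CPM, and of the 6 markers 3 rose and 1, *Siglech*, fell between SP and BM in Gr-1hi cells.

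The ratio of *Icos* to *Cd3e* CPM was 0.629 and 0.926 in SP Gr-1hi and 0.587 and 0.606 in SP Gr-1lo. In BM, where single counts decide it, it was 0.250 and 0.556 in Gr-1hi and 1.17 and 0.286 in Gr-1lo cells. The ratio of *Tnfrsf4* to *Cd3e* was 0.565 and 0.778 in SP Gr-1hi and 0.651 and 0.404 in SP Gr-1lo, but 8.08 and 7.44 in BM Gr-1hi and 11.2 and 10.9 in BM Gr-1lo. Both receptors therefore stood at similar ratios to *Cd3e* in SP, and in BM *Tnfrsf4* had 67 to 97 counts per library where *Cd3e* had 6 to 12.

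**Figure D3:**
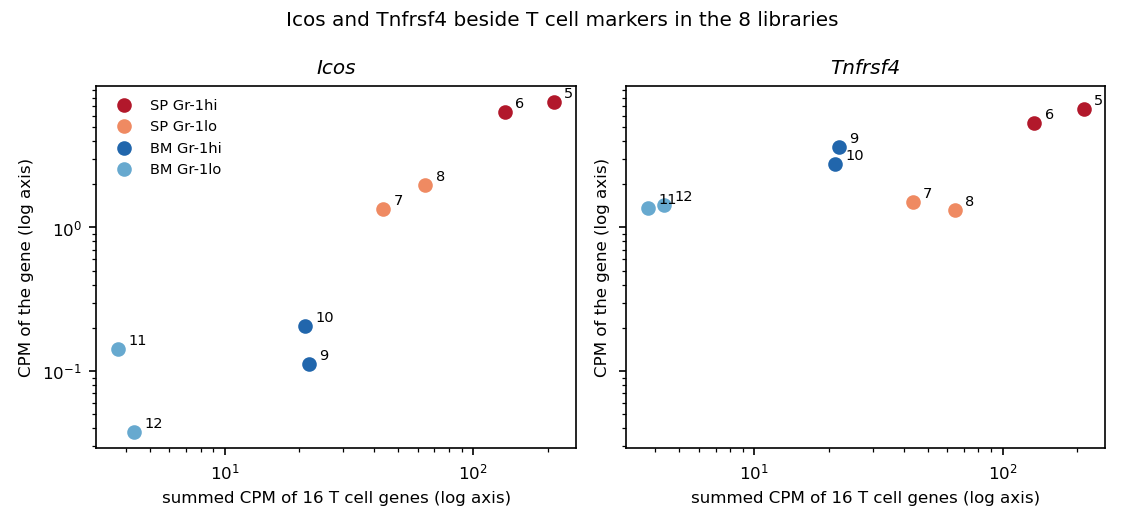
CPM of *Icos* (left) and *Tnfrsf4* (right) against the summed CPM of 16 T cell genes, 1 point per library, labelled with its number, both axes logarithmic. *Icos* is at 7.41 CPM where the T cell sum is 212 and at 0.0378 to 0.143 CPM where it is 3.73 to 4.33, while *Tnfrsf4* stays between 1.32 and 6.66.

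*Nfkbid* (ENSMUSG00000036931, chr7:30421732-30428746), which encodes the nuclear IκB protein IκBNS, was at 94.2 and 123 CPM in SP Gr-1hi and 115 and 124 in BM Gr-1hi. In Gr-1lo cells it was at 34.9 and 39.5 CPM in SP and 31.4 and 36.0 in BM. Tissues overlapped within both subsets, with a log2 FC of SP against BM of -0.13 (95% interval -0.45 to 0.19) in Gr-1hi and 0.14 (-0.18 to 0.47) in Gr-1lo cells, and the Gr-1hi value turned to 0.06 without libraries 5 and 7.

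*Ier3* (ENSMUSG00000003541, chr17:35821684-35822923), an immediate-early gene that modulates cell survival, had 90.7 and 83.9 CPM in SP Gr-1hi and 56.3 and 49.9 in BM Gr-1hi. It had 28.5 and 24.9 CPM in SP Gr-1lo and 22.3 and 14.6 in BM Gr-1lo. SP exceeded BM without overlap in both subsets, with a log2 FC of 0.72 ± 0.18 in Gr-1hi (adjusted p = 0.0181) and 0.53 ± 0.18 in Gr-1lo cells (adjusted p = 0.156, edgeR), so that *Ier3* did not reach 2-fold in either.

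*Tnf* (ENSMUSG00000024401, chr17:35199381-35202007), the inflammatory cytokine, was at 41.2 and 78.5 CPM in SP Gr-1hi and at 98.5 and 102 in BM Gr-1hi. In Gr-1lo cells it was at 20.7 and 25.9 CPM in SP and 14.5 and 13.2 in BM. The order of tissues was thus opposite in the subsets, with BM highest among Gr-1hi and SP highest among Gr-1lo libraries. The log2 FC of SP against BM was -0.74 ± 0.26 in Gr-1hi (adjusted p = 0.0626) and 0.75 ± 0.27 in Gr-1lo cells (adjusted p = 0.174, edgeR), neither of them called.

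The change of *Tnf* between subsets differed between tissues. Gr-1hi exceeded Gr-1lo by a log2 FC of 1.36 in SP and 2.85 in BM, and the interaction of tissue and subset was -1.49 ± 0.37 (95% interval -2.36 to -0.62, adjusted p = 0.035, edgeR). *Tnf* was the only 1 of the 8 genes called for the interaction, against 7.74% of all genes tested called higher and 2.00% called lower. Leaving out library 7, 8, 9, 10, 11 or 12 ended the call (adjusted p from 0.0588 to 0.127), whereas the interaction was -1.20 without library 5 and -2.12 without library 6. The libraries 5 and 6 also differed in a list of 12 immediate-early and heat shock genes, summed to 4118 CPM in library 5 and 8938 in library 6 against 3919 and 4915 in BM Gr-1hi. *Fos* was at 1075 and 2552 CPM, *Junb* at 1365 and 2110, *Dusp1* at 1070 and 1810 and *Egr1* at 54.2 and 913 in libraries 5 and 6, whereas *Hspa1b* was at 16.1 and 13.2, and *Hspa1a* was likewise no higher in library 6. The part of this in the *Tnf* value was not tested.

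Between SP and BM *Icos* was the only 1 of the 8 genes that was called, which in Gr-1hi cells is close to the share of all genes. A gene was called where the adjusted p did not exceed 0.05 and the FC was 2 or more. In Gr-1hi cells 1 of the 8 rose and none fell, where 14.0% of all genes tested were called higher in SP and 1.48% lower, and the median log2 FC was 0.31 over the 8 genes and 0.03 over all genes. By adjusted p alone 4 of the 8 passed, *Zc3h12a*, *Icos*, *Tnfrsf4* and *Ier3*, against 34.0% of all genes. In Gr-1lo cells 1 of the 8 rose and none fell, where 3.84% of all genes were called higher and 0.215% lower, with a median log2 FC of 0.23 over the 8 and -0.01 over all genes. The *Icos* call in Gr-1lo cells did not hold in edgeR's exact test on quantile-normalized TPM, where the log2 FC was 2.49 (adjusted p = 1), and without library 6 *Tnf* fell in Gr-1hi cells (log2 FC -1.36, adjusted p = 0.000273).

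Between subsets each of the 8 genes had a higher mean in Gr-1hi than in Gr-1lo cells of the same tissue, which for *Icos* in BM rested on overlapping libraries. In SP, 7 of the 8 rose and none fell, where 22.3% of all genes were called higher and 27.4% lower. Their log2 FC were 1.46 ± 0.09 for *Rc3h2*, 1.26 ± 0.11 for *Zc3h12a*, 2.03 ± 0.32 for *Icos*, 2.10 ± 0.23 for *Tnfrsf4*, 1.55 ± 0.14 for *Nfkbid*, 1.71 ± 0.19 for *Ier3* and 1.36 ± 0.27 for *Tnf*. *Rc3h1* had a log2 FC of 0.99 ± 0.10 (adjusted p = 3.14e-05), a 1.99-fold difference that stopped short of the threshold. The Roquin genes and their targets were on the same side in SP, with a median log2 FC of 1.50 over the 8 and -0.09 over all genes.

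In BM, 5 of the 8 rose and none fell, where 24.2% of all genes were called higher and 33.1% lower. *Tnf* rose the most, by a log2 FC of 2.85 ± 0.28, followed by *Nfkbid* with 1.82 ± 0.14, *Rc3h2* with 1.78 ± 0.09, *Ier3* with 1.53 ± 0.19 and *Tnfrsf4* with 1.19 ± 0.24. Not called were *Rc3h1* with 0.96 ± 0.10, *Zc3h12a* with 0.91 ± 0.11 and *Icos* with 0.80 ± 0.74. Under the study's stricter criterion for this comparison, an adjusted p under 0.01 and an FC over 8, 0 of the 8 genes were called in either tissue by edgeR and 0 by DESeq2, against 7.37% of all genes in SP and 16.7% in BM. By the adjusted p alone, as by the unadjusted p at 0.05, 8 passed in SP and 7 in BM, against 71.4% and 75.7% of all genes.

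The size of these differences depended on the scaling of libraries. TMM factors were 0.7244 to 0.8627 in the Gr-1hi and 1.257 to 1.302 in the Gr-1lo libraries, and with scaling by total counts alone the median log2 FC of all genes moved to -0.69 in SP and -0.99 in BM. The 8 genes then had medians of 0.90 and 0.54, and 3 (*Icos*, *Tnfrsf4* and *Ier3*) were called in SP and 2 (*Tnf* and *Nfkbid*) in BM. All genes called higher were then 13.4% in SP and 13.2% in BM, against 40.3% and 47.3% called lower. On that scale *Rc3h1* in BM had a log2 FC of 0.15 (adjusted p = 0.258), and its TPM were 16.4 ± 1.41 (SD, n = 2) in Gr-1hi and 15.5 ± 1.91 in Gr-1lo cells. In SP they were 21.5 ± 2.37 and 15.8 ± 0.462. With RLE scaling, by contrast, 8 of the 8 were called in SP and 7 in BM, with upper-quartile scaling 8 and 6, and with DESeq2 8 and 7. RLE scaling called 25% of all genes higher and 24.8% lower in SP, and 27.3% and 30.5% in BM. For upper-quartile scaling these shares were 23.8% and 25.6% in SP and 25% and 32.3% in BM. For DESeq2 the share of all genes was not counted, so its calls have no background beside them. *Rc3h1* lay close to the threshold: it gained the call in 9 alternatives in BM and 5 in SP, among them RLE scaling (log2 FC 1.11 and 1.13), upper-quartile scaling and DESeq2, and also without library 5, 6, 10 or 11 in BM and without library 6 in SP. *Zc3h12a* crossed it in BM with RLE scaling, with DESeq2 and without library 10, and *Tnf* in SP dropped below it without library 6 (log2 FC 0.80). *Icos* in SP lost its call in 1 alternative other than total-count scaling. *Tnfrsf4* in BM lost it in 2 alternatives, total-count scaling among them.

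**Figure D4:**
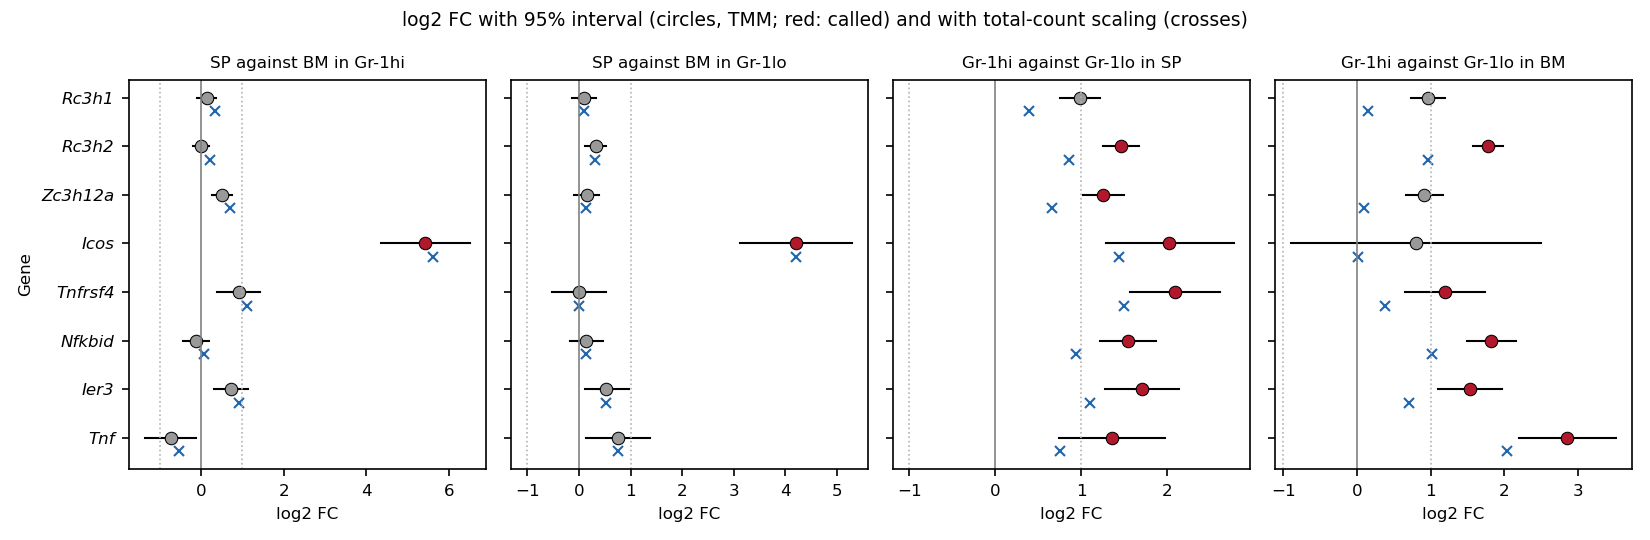
log2 FC of the 8 genes (vertical axis) in 4 comparisons, with the first group named over the second. Circles with 95% intervals are from the TMM fit, red where called and grey where not, crosses are from total-count scaling, and dotted lines mark a 2-fold difference. *Icos* at 5.43 and 4.20 stands alone in the comparisons of SP with BM, and each circle lies right of 0 in the comparisons of subsets, from 0.80 for *Icos* in BM to 2.85 for *Tnf* in BM.

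The genes that act with Roquin in mRNA decay did not differ between tissues at the threshold. Of 22 genes for deadenylation, decapping and 5′ decay, 0 were called between SP and BM in either subset by edgeR or by DESeq2. Over all genes, edgeR called 14.0% higher in SP in Gr-1hi and 3.84% in Gr-1lo cells. At an unadjusted p under 0.05 in edgeR there were 9 of the 22 in Gr-1hi and 0 in Gr-1lo cells. Their median log2 FC was -0.15 in Gr-1hi and -0.04 in Gr-1lo cells for all 22. *Cnot1*, the scaffold of the CCR4-NOT complex, was at 218 ± 0.412 CPM in SP Gr-1hi, 227 ± 13.4 in SP Gr-1lo, 246 ± 3.34 in BM Gr-1hi and 235 ± 13.2 in BM Gr-1lo (SD, n = 2). *Nufip2*, a cofactor of Roquin, was higher in Gr-1hi than in Gr-1lo cells, with a log2 FC of 1.12 ± 0.09 in SP, which was called, and 0.97 ± 0.09 in BM. *Ddx6*, a helicase of the decapping complex, rose in Gr-1hi cells by 2.10 ± 0.12 in SP and 1.78 ± 0.12 in BM, and *Cnot9* fell by 1.63 and 1.72 on the log2 scale.

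Other RNA-binding regulators of cytokine mRNA moved in several directions. Of 12 tested, 4 rose and none fell in SP relative to BM in Gr-1hi cells, where 14.0% of all genes were called higher. In Gr-1lo cells 0 were called by edgeR or DESeq2, against 3.84% of all genes called higher by edgeR. There 6 of the 12 had an unadjusted p under 0.05 in edgeR. The Regnase paralogues *Zc3h12c* and *Zc3h12d* were among those that rose, with log2 FC of 2.57 ± 0.29 and 1.45 ± 0.19, and *Arid5a*, which stabilizes mRNAs that Regnase-1 destabilizes, rose from 182 ± 0.132 to 366 ± 98.8 CPM. *Zc3h12c* was lower in Gr-1hi than in Gr-1lo cells, where it fell by 2.28 in SP and 4.64 in BM on the log2 scale, while *Zc3h12a* was higher. *Zfp36*, which encodes tristetraprolin, the AU-rich element binding protein, was the most abundant, at 2379 ± 857 CPM in SP Gr-1hi, 1822 ± 106 in BM Gr-1hi, 636 ± 62.4 in SP Gr-1lo and 484 ± 60.3 in BM Gr-1lo, and it rose in Gr-1hi cells of SP (log2 FC 1.90) and BM (1.91).

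MALT1 and its partners form the protease complex that cleaves Roquin and Regnase-1 after antigen receptor signalling. Of 4 genes of this complex, 1 rose in SP over BM in each subset, where 14.0% of all genes in Gr-1hi and 3.84% in Gr-1lo cells were called higher. In Gr-1hi over Gr-1lo cells 2 of the 4 rose in SP and 1 in BM, against 22.3% and 24.2% of all genes. None fell in these comparisons. *Malt1* differed little, at 96.7 ± 1.41 CPM in SP Gr-1hi, 112 ± 4.35 in SP Gr-1lo, 79.4 ± 5.04 in BM Gr-1hi and 85.7 ± 3.91 in BM Gr-1lo, with a log2 FC of SP against BM of 0.28 ± 0.09 (adjusted p = 0.0357) and 0.38 ± 0.09 (adjusted p = 0.0408, edgeR), both under 2-fold. *Card9*, the adaptor of myeloid cells, had log2 FC of -0.23 and -0.13, not called.

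Of 13 tested other mRNAs known as targets of Roquin or Regnase-1, 3 rose in SP relative to BM in Gr-1hi cells. In Gr-1lo cells 3 rose as well, and none fell in either subset. Over all genes, 14.0% were called higher in SP in Gr-1hi and 3.84% in Gr-1lo cells. *Ctla4*, an inhibitory receptor of T cells, rose by 4.57 ± 0.62 in Gr-1hi and 4.75 ± 0.77 in Gr-1lo cells, and *Irf4* rose by 3.03 ± 0.32 in Gr-1hi cells. *Ifng* was called in both, with 1.75 ± 0.259 CPM in SP Gr-1hi, 0.653 ± 0.207 in SP Gr-1lo, 0.161 ± 0.122 in BM Gr-1hi and 0 counts in BM Gr-1lo. *Lcn2* was the remaining call in Gr-1lo cells (log2 FC 1.34 ± 0.19). *Ctla4* and *Ifng*, like *Icos*, are T cell genes and passed the filter only through their SP libraries. *Nfkbiz*, which encodes IκBζ, had log2 FC of 0.12 ± 0.33 and 0.75 ± 0.34 between tissues, not called. It rose in Gr-1hi over Gr-1lo cells by 2.30 ± 0.35 in SP and 2.93 ± 0.36 in BM. In all, 9 of the 13 genes rose in SP and 8 in BM, with 1 and 2 lower. The shares of all genes were 22.3% higher and 27.4% lower in SP, and 24.2% and 33.1% in BM. *Il6*, *Il12b* and *Cxcl1*, also on the list of 16, did not pass the filter.

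The partners of the encoded receptors and cytokine were also measured. *Icosl*, the ligand of ICOS, was at 103 and 112 CPM in SP Gr-1hi, 39.6 and 42.9 in SP Gr-1lo, 141 and 133 in BM Gr-1hi and 42.0 and 45.7 in BM Gr-1lo. It rose in Gr-1hi over Gr-1lo cells, by a log2 FC of 1.38 ± 0.09 in SP and 1.65 ± 0.10 in BM, and in SP it was below BM among Gr-1hi cells by -0.35 ± 0.09 (adjusted p = 0.0205, edgeR), under 2-fold. *Tnfsf4*, the ligand of OX40, had at most 6 counts in any library and was not tested. The TNF receptor gene *Tnfrsf1a* rose in Gr-1hi cells of both tissues (log2 FC 1.25 and 1.20), whereas *Tnfrsf1b* was lower there without reaching 2-fold (-0.50 and -0.88).

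*Lta* and *Ltb*, the lymphotoxin genes beside *Tnf*, had their own values. *Ltb* was at 122 ± 12.5 CPM in SP Gr-1hi, 5.75 ± 0.432 in SP Gr-1lo, 80.2 ± 11.7 in BM Gr-1hi and 1.20 ± 0.0688 in BM Gr-1lo. It rose in SP over BM in Gr-1lo cells by a log2 FC of 2.25 ± 0.16, and its interaction was -1.65 ± 0.20 (adjusted p = 0.00321, edgeR), called in the same direction as that of *Tnf*. *Lta*, at 3.37 ± 1.11 CPM in SP Gr-1hi and 0.0299 ± 0.0156 in BM Gr-1lo, rose in SP by 3.71 ± 0.47 and 3.78 ± 0.65. Like *Icos*, *Lta* passed the filter only through its SP libraries. Of the 10 partner genes tested, 2 rose in Gr-1hi and 3 in Gr-1lo cells between SP and BM, and none fell. Over all genes, 14.0% were called higher in SP in Gr-1hi and 3.84% in Gr-1lo cells.

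Among NF-κB subunits and inhibitors, the family to which IκBNS belongs, 1 of 10 rose in Gr-1hi cells between SP and BM. In Gr-1lo cells 3 rose, and none was lower in either subset. The shares of all genes called higher in SP were 14.0% in Gr-1hi and 3.84% in Gr-1lo cells. *Nfkb2* rose in Gr-1hi cells by a log2 FC of 1.10 ± 0.17, and *Relb* and *Nfkbie* rose in Gr-1lo cells by 1.47 ± 0.19 and 1.20 ± 0.16. *Nfkbia*, which encodes IκBα, differed between subsets as *Nfkbid* did, from 97.5 ± 4.03 CPM in Gr-1lo to 245 ± 27.5 in Gr-1hi cells of SP and from 57.3 ± 5.95 to 183 ± 7.26 in BM. Of 12 immediate-early and heat shock genes, 3 rose in Gr-1hi and 2 in Gr-1lo cells between tissues, led by *Hspa1a* with 3.08 ± 0.35 and 2.59 ± 0.29.

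Across the 8 libraries the log2 CPM of the 8 genes followed each other apart from *Icos*. Pearson's r between pairs of the other 7 ranged from 0.72 for *Tnfrsf4* with *Tnf* to 0.98, and *Rc3h1* had 0.98 with *Rc3h2* and 0.97 with *Zc3h12a*. *Icos* had 0.20 to 0.62 with the others. These values describe 8 points that form 4 groups, and the contrast of Gr-1hi with Gr-1lo, on which the scaling bears, is part of each. Among genes with a mean of at least 10 CPM, the pattern nearest to *Rc3h1* was that of *Fxyd5*, *Rufy4* and *Gm45208* (r of 0.998 to 0.997), and the nearest to *Rc3h2* that of *Akap13*, *Zfp335* and *Zfp831*, each with 0.999. The nearest to *Zc3h12a* were *Dhx40*, *Pnpla2* and *Ninj1*, to *Tnfrsf4* *Cnbd2*, *Micall1* and *Gadd45b*, to *Nfkbid* *Klf6*, *Cyb561a3* and *Ly6g*, to *Ier3* *Entpd3*, *Gcnt2* and *Dclre1c*, and to *Tnf* *Cldn1*, *Gfpt1* and *Pik3cb*, all between 0.994 and 0.999. *Icos* was nearest to *Ppt1* (0.984), *Scd1* (0.981) and *Ighd* (0.980), the last of them a B cell gene.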

How the data were processed

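RNA of sorted CD11b+Gr-1hi and CD11b+Gr-1lo cells was sequenced as stranded, paired reads. According to the methods, FastQC 0.11.8 served for quality control and Sickle 1.33 for filtering, and reads were aligned to GRCm38 with STAR 2.5.3a and counted with featureCounts of Subread 1.6.4 on GENCODE M24. The authors deposited raw counts per gene, without normalization, for 8 libraries. The methods call the 2 libraries of a group independent biological replicates, but their mice are not named, and replicate numbers do not pair groups. Libraries 5 and 6 (SP Gr-1hi), 7 and 8 (SP Gr-1lo), 9 and 10 (BM Gr-1hi) and 11 and 12 (BM Gr-1lo) were grouped by their labels.

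The 8 genes and the lists of related genes were chosen with earlier results of these data known. The analysis used edgeR 4.0.16 under R 4.3.3 (filterByExpr, TMM, robust quasi-likelihood test, 1 fit of 8 libraries, 4 residual degrees of freedom, Benjamini-Hochberg adjustment over 17650 genes). The procedure was tested on simulated data in which few genes changed, as many raised as lowered, all above the mean level of *Icos* and *Tnfrsf4*. That simulation does not cover genes as low as these, or comparisons in which a large share of genes differ. CPM are TMM-normalized, log2 FC are given ± SE with 95% intervals from the fit, and means ± SD over 2 libraries. TPM used GENCODE M21 exon lengths, with no length for 241 genes. 3′ UTRs came from GENCODE M21 transcripts, and the Roquin proteins were not compared here. Named besides the 8 genes were, per list, a few preset genes, the 3 most abundant and the 2 called with the largest change per comparison, of which the text gives a part, and the 3 genes of highest Pearson r with each of the 8. Alternatives were RLE and upper-quartile scaling, DESeq2 1.42.0, no filter, a fit of the 4 libraries compared, the exact test on quantile-normalized TPM, leaving out each library, leaving out libraries 5 and 7, and total-count scaling. 1 gene of the related lists is not reported here.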

Additional observations from a re-analysis of the deposited data

Results flagged for a closer look

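*Tnf* stood out because its response to the subset differed between tissues by a test of the difference itself. The log2 FC of Gr-1hi over Gr-1lo cells was 1.36 in SP and 2.85 in BM. The interaction was -1.49 ± 0.37 (adjusted p = 0.035, edgeR's quasi-likelihood test over all genes). This call was fragile: it ended in 6 of the alternatives, each of which left out a single library. Across the alternatives the interaction stayed negative, from -2.12 to -1.2. In SP Gr-1hi the libraries 5 and 6 were 41.2 and 78.5 CPM, so the group's spread was wide, while in BM Gr-1hi the libraries were 98.5 and 102 CPM.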

How the results depend on the processing

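Of the log2 FC of single genes under the alternatives, 574 did not turn sign and kept their side of the threshold, 17 lost the call, 20 gained it and 12 turned sign. Each gene that turned had a log2 FC of at most 0.18 in size and was not called. A main log2 FC of 0.00 has no sign to turn and was counted among the 574. These were *Rc3h2* in SP against BM in Gr-1hi cells (-0.15 to 0.21 under the alternatives) and *Tnfrsf4* in Gr-1lo cells (-0.15 to 0.10). The number of genes called in SP against BM was 1 in Gr-1hi cells and ranged from 1 to 2 when each library was left out, and it was 2 (*Icos* and *Tnfrsf4*) with total-count scaling, an alternative chosen after seeing the data. In Gr-1lo cells it was 1, and 0 in the exact test on quantile-normalized TPM. For Gr-1hi against Gr-1lo it was 7 in SP and 5 in BM, and 3 and 2 with total-count scaling, 8 and 7 with RLE scaling, 8 and 6 with upper-quartile scaling and 8 and 7 with DESeq2. The shares of all genes called higher in SP and BM were 22.3% and 24.2% with TMM and 13.4% and 13.2% with total counts. They were 25% and 27.3% with RLE and 23.8% and 25% with upper-quartile scaling, and were not counted for DESeq2. The interaction count was 1 and ranged from 0 to 1 without each library. Without each library in turn, *Rc3h1* in SP against BM ranged from -0.02 to 0.13 in Gr-1hi and from -0.01 to 0.21 in Gr-1lo cells, its interaction from -0.14 to 0.14 and that of *Ier3* from -0.15 to 0.46, and *Nfkbid* in SP against BM in Gr-1hi cells was 0.06 without libraries 5 and 7 and 0.07 with total-count scaling. The cause was not tested. No paired analysis was possible because no label says which libraries share a mouse. The letters TTCNNNGAA stood in 6 of the 8 genes also when only the longest 3′ UTR was searched. With 2 to 7 counts of *Icos* in each BM library, its log2 FC between BM subsets had a SE of 0.74.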
